A study of Mus musculus with 8 samples.

Results

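The astacin metalloproteases measured here are 6 genes: the meprin subunits Mep1a and Mep1b, the tolloid proteases Bmp1, Tll1 and Tll2, and the egg protease Astl. They were taken by gene symbol, and all 6 were found among 20863 genes, read by 9 of the 62976 spots on the array. Total RNA from the lung of mice on the C57BL/6 background, at 8 weeks of age, was hybridised to 8 single-colour arrays. Each array held RNA of a different animal, per the series' design text. Of the 8 mice, 4 were wild type and 4 overexpressed Fra-2 (Fra-2 TG), the AP-1 transcription factor encoded by Fosl2. The promoter that drives the transgene is not given in the sources used here, so the cells that carry it are not known from them. Levels are log2 of the normalised intensity, and differences are transgenic minus wild type on that scale. The middle value of all spots, 4.74, was used as a floor under which a spot is too dim for a fold to be read.

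Astacins are zinc-dependent endopeptidases that are made as inactive proenzymes and switched on when a propeptide is cut away. Meprin beta, the product of Mep1b, is a membrane-bound sheddase known from the brush borders of kidney and intestine, where it pairs with meprin alpha, the product of Mep1a, which is otherwise secreted. Both meprins can cut procollagen propeptides, cytokines and adhesion proteins. Bmp1 and the tolloid-like proteases remove the C-terminal propeptides of fibrillar procollagens, activate lysyl oxidase and cut chordin, which sets free bone morphogenetic proteins. Astl encodes ovastacin, which cuts the zona pellucida after fertilisation.

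Among the 4 members with a promoter entry in RefSeq (GRCm38.p6), Mep1a, Tll1, Tll2 and Astl gave 5 windows of 300 bases around transcription starts. No entry was matched for Mep1b or Bmp1. The AP-1 motif TGANTCA and the cyclic AMP response motif TGACGTCA were searched on both strands; each reads the same on either strand and they do not overlap in sequence. The first was in 0 of the 5 windows and in 7.81% of all 32851 windows, and the second in 0 of the 5 and in 1.79% of all. No match says only that these letters are not in these windows. The 250 bases before the start of Mep1a (GRCm38.p6, minus strand, chr17:43502774-43503023) are shown because Mep1a is the partner subunit of the gene that changed. No part is in capitals, since neither motif is in it.
Mep1a: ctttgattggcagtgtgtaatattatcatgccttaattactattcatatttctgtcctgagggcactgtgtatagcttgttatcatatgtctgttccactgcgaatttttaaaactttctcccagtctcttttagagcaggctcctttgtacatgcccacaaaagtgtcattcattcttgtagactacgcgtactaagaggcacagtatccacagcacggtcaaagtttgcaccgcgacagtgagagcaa

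All 10 lung epithelial marker genes lay above the floor in both groups in the labelled tissue, with Sftpc and Scgb1a1 at the top of the scale. Mouse 4 of each genotype was the array least like its own group, with mean correlations of 0.974 (wild type) and 0.978 (transgenic), against 0.981 to 0.983 for the other 6 arrays. Values without these mice are given beside several results below. The targeted gene was read by 2 Fosl2 spots of opposite direction, and the dimmer one was higher in all 4 transgenic mice (6.35, 6.98, 6.68 and 7.85) than in any wild-type mouse (3.44, 4.41, 4.65 and 5.58). Its limma p adjusted over all spots was 0.153, and the brighter spot differed by -0.75 (adjusted p = 0.537). Because lung RNA holds many cell types, a change in the share of a cell type and a change in RNA per cell cannot be told apart for any gene below.

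One member of the family rose in transgenic lung. Mep1b was read by 1 spot (46467), so there was no second spot to set beside it. Whether that spot also reads other transcripts was not tested. For Mep1b, wild-type mice 1 to 4 read 3.57, 3.64, 3.93 and 2.63, and transgenic mice 1 to 4 read 8.46, 8.16, 8.58 and 9.71. The wild-type values all lay under the floor and the transgenic values all lay well above it. The groups were parted by a gap of 4.23, which is wider than the range of 1.30 within wild-type mice or of 1.55 within transgenic mice. The mean was 3.44 ± 0.56 in wild type and 8.73 ± 0.68 in transgenic lung (SD, n = 4 each), a rise of at least 15.9-fold when the wild-type arrays are set to the floor. The fitted difference was 5.28 (SE 0.39, 95% interval 4.39 to 6.17), with a limma adjusted p of 0.00446 over all genes. An exact two-sided permutation test gave p = 0.0286, the smallest that 4 mice against 4 allow. Of all 20863 genes, 0.216% passed the limma threshold, 0.125% as higher and 0.0911% as lower; of the 6 members 1 passed, as higher.

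Mep1b passed in each of the 8 fits that left out 1 mouse, with differences from 4.95 to 5.47 and adjusted p from 0.00877 to 0.0256. Transgenic mouse 4 had the highest Mep1b level of its group and also the highest level at the dimmer Fosl2 spot. Wild-type mouse 4, the highest of its own group at that Fosl2 spot, had the lowest Mep1b level of the 8 mice. Without both mice numbered 4 the difference was 4.68 (SE 0.16, limma adjusted p = 0.00391). An offset of 32 added before the log2, which shrinks dim changes, brought it to 3.40 (adjusted p = 0.00127). With mouse number as a replicate block, the difference was 5.28 and did not pass (limma adjusted p = 0.103).

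**Figure D1:**
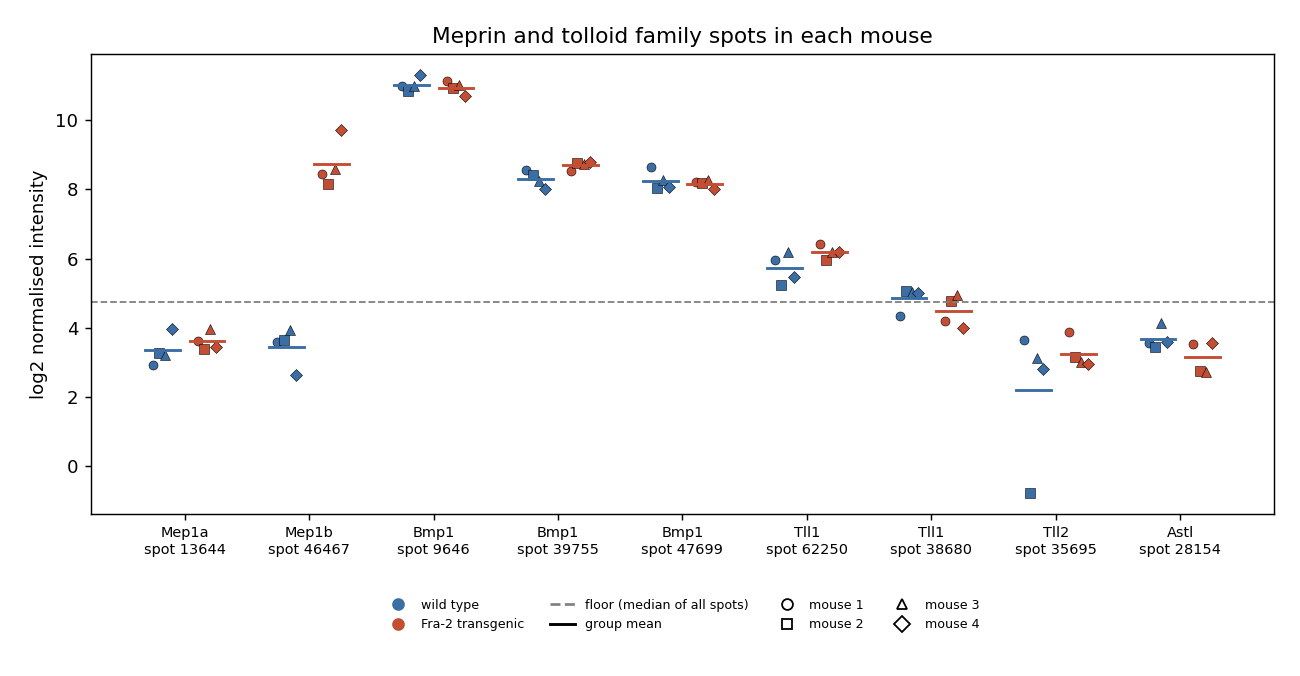
Log2 normalised intensity (vertical axis) of each of the 9 spots of the 6 genes (horizontal axis) in the 4 wild-type and 4 transgenic mice, 1 point per mouse, with group means as bars and the floor of 4.74 as a dashed line. At the Mep1b spot the transgenic mice lie between 8.16 and 9.71 and the wild-type mice between 2.63 and 3.93, while at the other 8 spots the groups overlap.

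The partner subunit did not show this pattern. Mep1a stood at 2.92, 3.28, 3.21 and 3.96 in wild-type mice and at 3.62, 3.39, 3.95 and 3.46 in transgenic mice. All 8 values lay under the floor and the groups overlapped, so neither a level nor a fold can be read for it. The fitted difference was 0.26 (SE 0.24, 95% interval -0.28 to 0.81, limma adjusted p = 0.780). Within each array, the log2 value of Mep1b minus that of Mep1a was 0.65, 0.36, 0.72 and -1.34 in wild-type mice. In transgenic mice it was 4.83, 4.77, 4.63 and 6.25. The shift between groups was 5.02 (exact two-sided permutation p = 0.0286, and 0.0714 adjusted over the 5 within-array comparisons made). The unadjusted p is the smallest the design allows. Mep1a varied far less across mice than the gap of 4.23 between the Mep1b groups, so that p could only repeat the one of Mep1b. Since Mep1a was under the floor in all mice and Mep1b in the wild-type mice, the size of this shift cannot be read as a difference between the subunits.

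Bmp1, the procollagen C-proteinase, was read by 3 spots, all above the floor in every mouse. At the brightest, spot 9646, wild-type mice 1 to 4 read 10.97, 10.84, 10.97 and 11.30, and transgenic mice read 11.12, 10.94, 11.02 and 10.68. Means were 11.02 ± 0.20 and 10.94 ± 0.19 (SD, n = 4 each), and the groups overlapped. The difference of -0.08 (SE 0.15, 95% interval -0.43 to 0.26) did not pass (limma adjusted p = 0.901 over all genes), and it turned to 0.0128 without wild-type mouse 4, to 0.00425 without transgenic mouse 4 and to 0.098 without both. The interval leaves room for changes of up to about those bounds and not for one of the size of Mep1b. The shift of Mep1b over this spot was 5.36 (exact two-sided permutation p = 0.0286, 0.0714 adjusted over the 5 comparisons), a size that rests on wild-type Mep1b values under the floor. Bmp1 varied far less across mice than the gap of 4.23 between the Mep1b groups. The unadjusted p could therefore only repeat that of Mep1b and is no separate result.

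The other Bmp1 spots did not pass either. Spot 47699, annotated like the brightest one to the coding transcript, differed by -0.09 (SE 0.16). Spot 39755, annotated to a non-coding Bmp1 transcript, read 8.57, 8.40, 8.24 and 8.01 in the wild-type and 8.52, 8.76, 8.74 and 8.80 in the transgenic mice. Its highest wild-type value lay just above its lowest transgenic value, so the groups overlapped by 1 mouse. The difference was 0.40 (SE 0.15, limma p = 0.491 adjusted over 31465 named spots; exact two-sided permutation p = 0.0571). Its shift over the brightest Bmp1 spot was 0.48 (exact two-sided permutation p = 0.114, adjusted p = 0.179), so a difference between the spots was not shown. Of all named spots 0.178% passed, and of the 9 member spots the Mep1b spot alone.

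Tll1, which acts in heart development as a tolloid-like protease, was read by 2 spots whose differences had opposite signs. At the brighter, spot 62250, the wild-type readings were 5.95, 5.23, 6.20 and 5.47 and the transgenic ones 6.41, 5.95, 6.18 and 6.18. The transgenic values filled the upper part of the joint range, with overlap. Means were 5.71 ± 0.44 and 6.18 ± 0.19 (SD, n = 4 each), a difference of 0.46 (SE 0.23, 95% interval -0.05 to 0.98, limma adjusted p = 0.593). The dimmer, spot 38680, stood at 4.34, 5.07, 5.02 and 4.999 against 4.20, 4.78, 4.96 and 3.99, near the floor in all mice. Its difference was -0.37 (SE 0.26, limma adjusted p = 0.711 over spots). The shift between both spots, -0.84, had an exact two-sided permutation p of 0.143 (0.179 adjusted). With the mean of both spots the gene differed by 0.05, so no direction is given for Tll1.

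Tll2 and Astl were under the floor in all 8 mice. Tll2, the other tolloid-like protease, ranged from -0.77 to 3.64 in wild-type mice and from 2.94 to 3.88 in transgenic mice. Wild-type mouse 2 set the low end. The fitted difference of 1.05 (SE 0.88, limma adjusted p = 0.759) became 0.06 without that mouse. Astl ranged from 3.43 to 4.15 in wild-type mice and from 2.71 to 3.57 in transgenic mice, a fitted difference of -0.54 (SE 0.26, adjusted p = 0.593). No fold is given for either gene. With Mep1a, 3 of the 6 members had both group means under the floor, as did 29.7% of all genes. Groups without overlap were seen for 1 of 6 members (Mep1b) and for 6.53% of all genes.

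**Figure D2:**
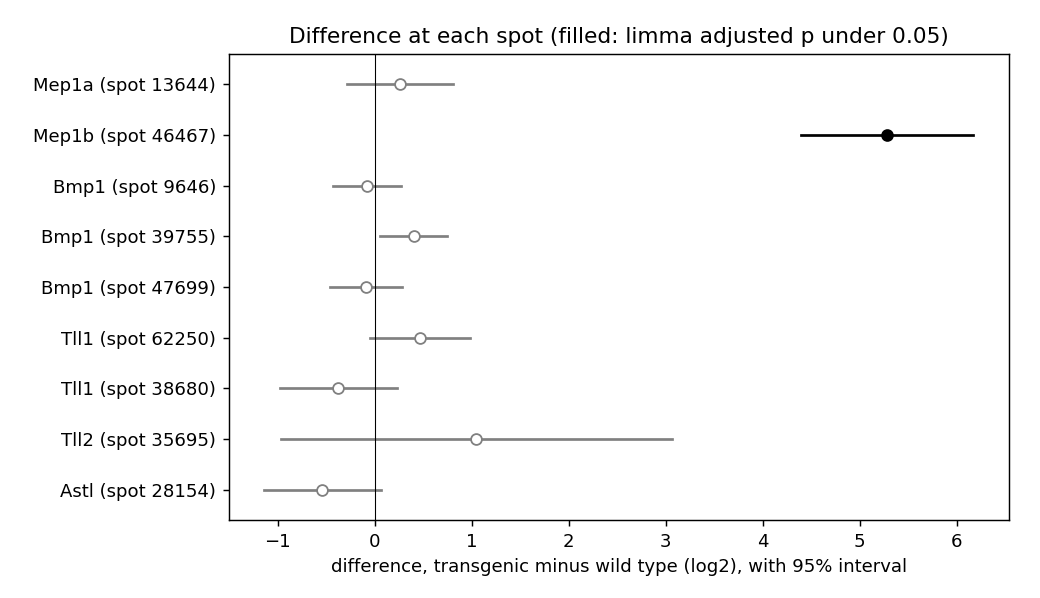
Difference between transgenic and wild-type means (horizontal axis, log2) at each of the 9 spots (vertical axis), with the 95% interval of the limma fit over all named spots. The interval of Mep1b runs from 4.39 to 6.17, that of Bmp1 spot 39755 from 0.05 to 0.75, and those of the other 7 spots include 0.

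Genes next to the members on their chromosomes were listed after the member values had been seen, as the 4 protein-coding neighbours on each side in RefSeq. Of the 7 measured around Mep1b, on chromosome 18, 0 passed, with differences from -0.43 (Ccdc178) to 0.61 (Rnf125, a ubiquitin ligase; limma adjusted p = 0.528). Rnf138, next to Mep1b on one side, differed by -0.19, and Garem1, next on the other side, by 0.02. Around the other 5 members 0 genes passed as well, and the lowest adjusted p was 0.150, for Dntt beside Tll2 (1.24, SE 0.24). Dntt encodes the terminal transferase of developing lymphocytes.

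Proteases that activate or shed meprins were listed next. Klk4, Klk5, Klk8, Prss1 and Tmprss6 belong to the serine proteases that can remove the meprin propeptide, and Adam10 and Adam17 can release meprin beta from the membrane. Of the 8 measured, 0 passed over all genes in either direction (limma; without adjustment, 1 higher and 1 lower had p under 0.05), and the median difference was -0.11, against 0.01 over all genes. Of all 20863 genes, 9.15% had an unadjusted p under 0.05, against which the unadjusted counts of each list are to be read. For 6.53% the groups did not overlap, the share to set beside each gene without overlap below. Klk8, a kallikrein-related peptidase, had the smallest p. It read 8.97, 9.47, 9.66 and 8.82 in the wild-type and 9.95, 9.97, 10.07 and 10.04 in the transgenic mice. The transgenic mice fell within a narrow range, above the highest wild-type mouse, but the difference of 0.78 (SE 0.20) did not pass (limma adjusted p = 0.253). Klk4 differed by -0.59 near the floor, Adam17 by -0.30 and Prss1, under the floor, by 0.48.

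Among the fetuins, which inhibit astacins, and the Timps, inhibitors of matrix metalloproteases listed beside them, 0 of 5 passed (limma; 1 at an unadjusted p under 0.05). Their median difference was 0.33. Fetub, which encodes the fetuin that holds ovastacin in check, read 7.42, 7.58, 6.76 and 7.46 in the wild-type and 7.94, 7.59, 7.80 and 9.16 in the transgenic mice. The groups touched without overlap, and transgenic mouse 4 was the highest. The difference was 0.82 (SE 0.35, limma adjusted p = 0.540), or 0.48 without that mouse. Ahsg, fetuin-A, differed by 0.33 (SE 0.30), Timp1 by 0.74 (SE 0.50, or 0.19 without transgenic mouse 4) and Timp3 by -0.26.

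Of 16 proteins that meprins can cut, 0 passed (limma; without adjustment, 1 higher and 2 lower had p under 0.05), and the median difference was 0.04. Il6ra, the interleukin 6 receptor that meprins can shed, ranged from 12.44 to 13.002 in wild-type mice and from 11.90 to 12.45 in transgenic mice. The groups overlapped by 1 mouse each, and the difference was -0.54 (SE 0.17, limma adjusted p = 0.391). Il1b, a cytokine whose precursor meprins cleave, differed by -1.01 (SE 0.35, adjusted p = 0.433). Nid1, a basement membrane linker, differed by 0.26 (SE 0.12), and Col1a1, the type I collagen chain, by 0.52 (SE 0.18, adjusted p = 0.432). Il6, a cytokine, read 4.84 to 5.51 across wild-type mice, 5.10 to 5.44 across transgenic mice 1 to 3 and 8.38 in the remaining transgenic mouse, with a difference of 0.86 that did not pass (limma adjusted p = 0.750) and was 0.0663 without that mouse.

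**Figure D3:**
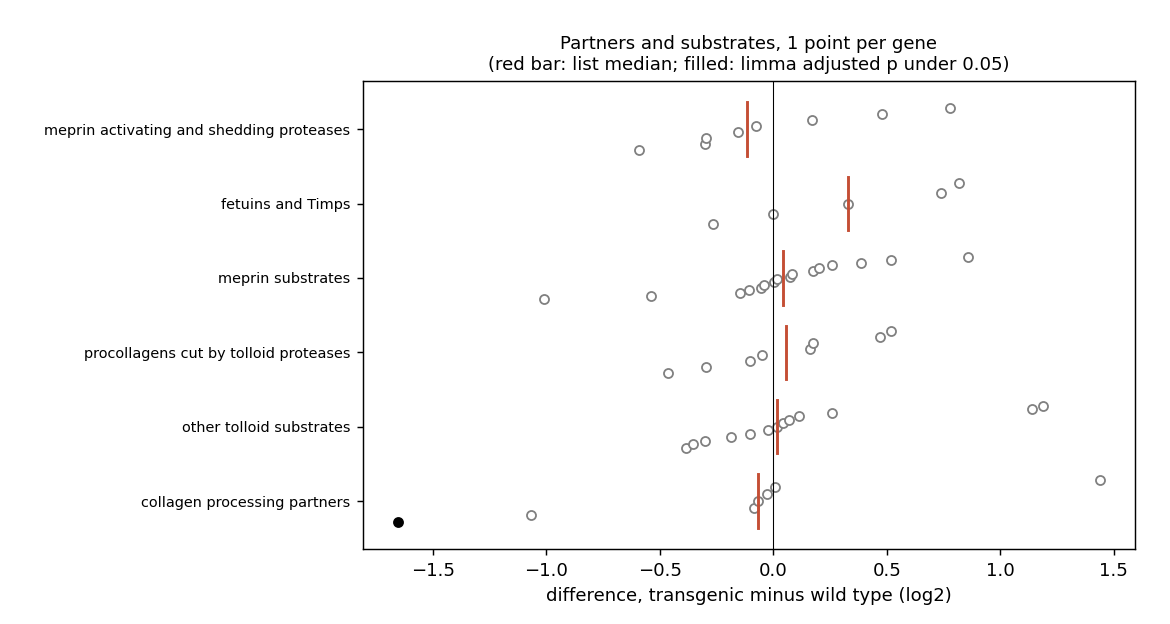
Difference between transgenic and wild-type means (horizontal axis, log2) for each measured gene of the 6 partner and substrate lists (vertical axis), 1 point per gene, with the list median as a red bar. List medians lie between -0.11 and 0.33, and the 1 filled point, for a gene past the threshold, is Adamts14 at -1.65.

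The procollagens listed as cut by Bmp1 and the tolloids, fibrillar ones and type VII, showed no call. Of 8 genes 0 passed (limma; without adjustment, 2 higher and 0 lower had p under 0.05), and the median difference was 0.06. Col5a2, a chain of type V collagen, read 6.86, 7.20, 7.15 and 7.30 in the wild-type and 7.60, 7.54, 7.51 and 7.73 in the transgenic mice. The groups did not overlap, and the difference was 0.47 (SE 0.13, limma adjusted p = 0.319). Col1a1 ranged from 11.64 to 12.36 against 12.38 to 12.61, again without overlap and without a call. Col1a2 differed by 0.16, and Col7a1, the anchoring fibril collagen, by -0.46 (SE 0.20, adjusted p = 0.552).

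Of 13 measured other substrates of these proteases 0 passed (limma; 1 at an unadjusted p under 0.05; median difference 0.02). Dspp, a dentin matrix gene, was under the floor in all mice, at 3.47, 2.98, 2.80 and 2.73 in wild-type mice and 4.11, 4.29, 4.12 and 4.22 in transgenic mice. Its groups did not overlap and its limma adjusted p was 0.0506, which became 0.0203 without wild-type mouse 1 and 0.927 with the mean of all its spots. No fold is given for so dim a signal. Chrd, the antagonist chordin, differed by 0.26, Ltbp1, which tethers latent TGF-beta, by -0.39 (SE 0.20), and Mstn, myostatin, under the floor, by 1.14 (SE 0.83). Lox, lysyl oxidase, differed by 0.04.

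A procollagen-processing gene fell. Adamts14, an N-proteinase that removes the propeptide at the end opposite to the one cut by Bmp1, read 8.36, 8.76, 9.38 and 9.34 in the wild-type and 7.34, 7.39, 7.35 and 7.14 in the transgenic mice. The highest transgenic mouse lay below the lowest wild-type mouse, and the transgenic mice spread less. Means were 8.96 ± 0.49 and 7.31 ± 0.11 (SD, n = 4 each), a 3.15-fold fall (difference -1.65, SE 0.23, limma adjusted p = 0.0449). The call lies at the edge of the threshold. It held in 1 of 8 fits with a mouse left out, that without wild-type mouse 1 (adjusted p = 0.0249). It was lost without wild-type mouse 2 (0.111), 3 (0.116) or 4 (0.0944), without transgenic mouse 1 (0.134), 2 (0.150), 3 (0.151) or 4 (0.103), and without both mice numbered 4 (0.151). In all of these fits the difference stayed between -1.85 and -1.47. A dimmer Adamts14 spot under the floor differed by -0.85, and the brighter one had an adjusted p of 0.0501 over all named spots.

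The other partners in procollagen processing did not pass, 6 of 7 in all, and the median of the list was -0.07. Adamts3, a related N-proteinase under the floor, differed by -1.07 (SE 0.39, limma adjusted p = 0.463), and Adamts2, the main one in skin, by 0.01. Sfrp2, a frizzled-related protein that can bind Bmp1, stood at 7.71, 7.10, 7.29 and 8.64 in wild-type mice and at 8.86, 8.73, 8.74 and 10.16 in transgenic mice. The groups did not overlap, and mouse 4 was the highest in each. The difference was 1.44 (SE 0.43, limma adjusted p = 0.350), and 1.41 without both mice numbered 4 (adjusted p = 0.0833). Pcolce, the enhancer of the C-proteinase, differed by -0.03, Pcolce2 by -0.07 and Postn, periostin, by -0.09.

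**Figure D4:**
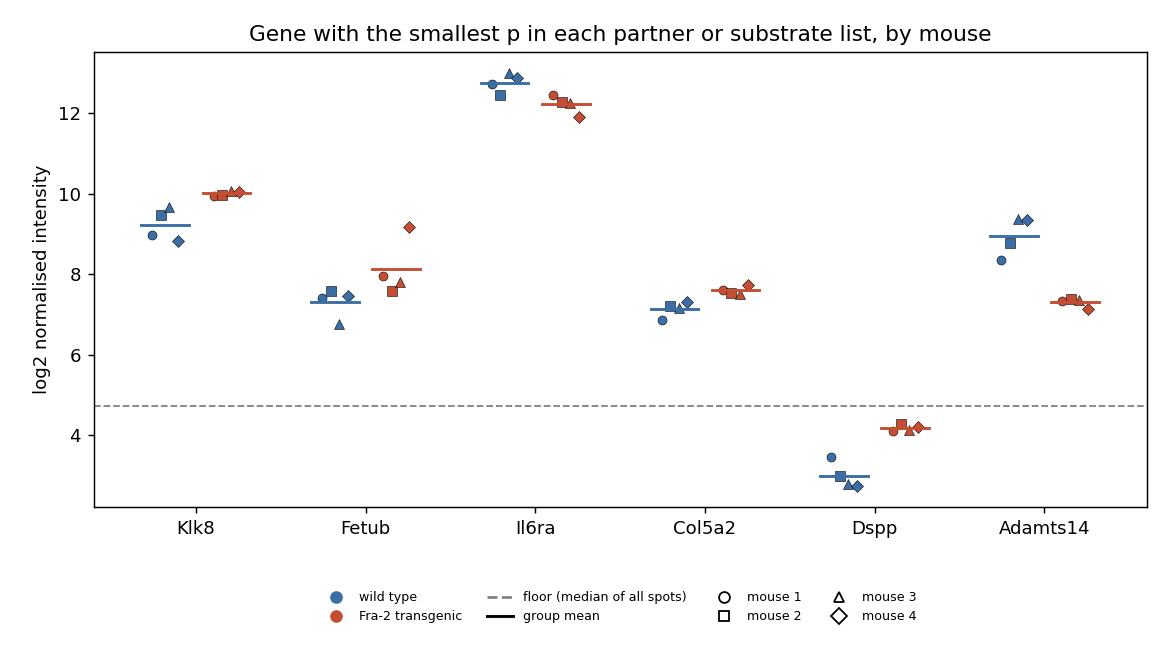
Log2 normalised intensity (vertical axis) of the gene with the smallest p in each of the 6 lists (horizontal axis) in the 4 wild-type and 4 transgenic mice, with group means as bars and the floor of 4.74 as a dashed line. Adamts14 lies between 7.14 and 7.39 in transgenic mice and between 8.36 and 9.38 in wild-type mice, and both groups of Dspp lie under the floor.

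Mep1b is best known from the brush borders of gut and kidney, and genes of those tissues were read beside it. Of 11 measured brush border and other gut and kidney genes 0 passed (limma, with 1 higher at an unadjusted p under 0.05), and the median difference was 0.03. The intestinal genes Cdx2, Lct and Sis and the kidney tubule gene Umod were under the floor in all 8 mice. Others of the list, 6 of 11, had a group mean above the floor. Anpep, an aminopeptidase, read 12.17 to 12.996 over all mice, Lrp2, the endocytic receptor megalin, 10.55 to 11.25, Dpp4, a dipeptidyl peptidase, 10.0007 to 10.39 and Mme, neprilysin, 7.97 to 8.55. Vil1, the actin-bundling protein villin, ranged from 4.09 to 5.41 in wild-type mice and from 5.45 to 6.83 in transgenic mice, without overlap (difference 1.39, SE 0.38, limma adjusted p = 0.304). The summed signal of the list, on the log2 scale, ran from 13.24 to 13.56 in wild-type and from 13.01 to 13.23 in transgenic mice, lower without overlap. Anpep, the brightest gene of the list, made up most of this sum and differed by -0.31 (SE 0.15, limma adjusted p = 0.594). By gene, 6 of the 11 were higher and 5 lower. Of 6 oocyte genes, listed for Astl, 0 passed (limma, with 1 lower at an unadjusted p under 0.05, Zp1, under the floor in all mice). The ovastacin target Zp2 was also under the floor in all mice. Gdf9 and Nlrp5, 2 of the 6, had a group mean above the floor. Their means were 6.38 and 5.58 in wild-type and 6.59 and 4.91 in transgenic mice.

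Among markers of leukocytes and stroma, natural killer cell genes and Marco held the calls. Of 6 natural killer cell genes 3 passed as lower (Gzma, Klre1 and Ncr1) and 0 as higher, against 0.0911% and 0.125% of all genes. All 6 were lower without overlap between the groups, while 6.53% of all genes did not overlap in either direction. Each of the 6 had an unadjusted limma p under 0.05, and the median difference was -2.07. Their summed log2 signal was 12.86 to 13.76 in wild-type and 10.29 to 10.998 in transgenic mice. Of 7 measured T cell and thymocyte genes 0 passed (limma; 4 at an unadjusted p under 0.05), with sums of 10.60 to 11.29 and 11.41 to 11.77. Of 8 lung macrophage genes Marco fell (-2.08, SE 0.22, limma adjusted p = 0.0105), with sums of 15.19 to 16.29 and 15.87 to 16.58. The other 7 were higher in transgenic mice without passing, and the median difference of the list was 0.28. Besides Marco, 1 gene had an unadjusted p under 0.05, Itgax, higher by 0.62 without overlap. For neutrophils (5 measured), B cells (4), fibroblasts (7), smooth muscle (6), endothelium (6) and heart muscle (6), 0 genes passed (limma; at an unadjusted p under 0.05, 1 B cell and 1 fibroblast gene were higher, and 3 smooth muscle and 2 heart muscle genes lower). Sums of both groups overlapped for these lists except smooth muscle, at 15.05 to 15.42 against 14.69 to 15.02. The part of any of these cells in the Mep1b signal was not tested.

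The genes most like Mep1b across the 8 arrays were ranked among 14666 genes above the floor in at least 1 group, by Pearson's r over log2 levels. Since Mep1b separates the groups, such an r is high for any gene that does so as well, and it is given as a description. The highest were Cavin3, a caveolar coat protein (r = 0.996), Cnksr3 (0.985), Bst1, an ectoenzyme of the CD38 family (0.984), Phlda3, a p53 target that restrains Akt (0.981), and Cpz, a secreted carboxypeptidase (0.981). Differences were 1.19 (SE 0.14) for Cavin3, 0.81 (SE 0.11) for Cnksr3, 1.00 (SE 0.15) for Bst1, 0.89 (SE 0.12) for Phlda3 and 0.96 (SE 0.12) for Cpz. The limma adjusted p passed for 4 of them, lying between 0.0180 (Cavin3) and 0.0323 (Phlda3), and was 0.0569 for Bst1, and with 1 mouse left out Cavin3 passed in 2 of 8 fits and the other 4 in 0. With group means taken off, r with Mep1b was 0.946 for Cavin3, 0.878 for Bst1, 0.588 for Phlda3, 0.572 for Cnksr3 and 0.571 for Cpz. Mouse 4 lay farthest from the Mep1b mean in each group (2.63 in wild type, 9.71 in transgenic). The r with group means taken off was not computed without these mice. The 4 wild-type Mep1b values behind each r lie under the floor. Without both mice numbered 4, a comparison added after the data were seen, r over the other 6 arrays was 0.968 (Cpz) to 0.997 (Cavin3). The genes were picked by r over arrays that include these 6, so it is no separate support.

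At the opposite end stood Klra8, a natural killer cell receptor (r = -0.980), Xpnpep2, a membrane-bound aminopeptidase (-0.978), Dock3 (-0.969), Crebbp, a histone acetyltransferase (-0.968), and Arhgap17 (-0.967). Klra8 fell by 3.83 (SE 0.20, limma adjusted p = 0.000888) and passed in 8 of 8 fits with a mouse left out. Its spot may also read other Klra genes, which have near-identical sequences. Xpnpep2 fell 3.37-fold (-1.75, SE 0.20, adjusted p = 0.0151), a call kept in 2 of those 8 fits. With the mean of all its spots the Xpnpep2 difference was -0.856 and the call was lost (adjusted p = 0.306). Dock3, Crebbp and Arhgap17 differed by -0.45 to -0.39 and did not pass. With group means taken off, r with Mep1b was -0.335 for Klra8, -0.398 for Dock3, -0.654 for Xpnpep2, -0.884 for Arhgap17 and -0.902 for Crebbp. The mice numbered 4, farthest from the Mep1b group means, were kept in for these values.

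For Bmp1 the highest r over the 8 arrays belonged to Ces1e, a carboxylesterase (0.986), Gas6, a ligand of TAM receptors (0.985), Proc, protein C (0.969), Mtfr1l (0.968) and Usp2, a deubiquitinase (0.967). None of the 5 passed (limma adjusted p from 0.778 to 0.961), and their differences lay between -0.28 and -0.06. With group means taken off, r was 0.971 to 0.990. In Bmp1 itself, wild-type mouse 4 was the highest and transgenic mouse 4 the lowest of the 8 mice, which are the arrays least like their groups. Without both mice numbered 4, r over the other 6 arrays was 0.992 for Gas6, 0.987 for Proc, 0.940 for Ces1e, 0.847 for Mtfr1l and 0.821 for Usp2. These 6 arrays are among the 8 by which the genes were picked.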

How the data were processed

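Lung RNA of 4 wild-type and 4 Fra-2 transgenic mice was measured on single-colour Agilent arrays with Cy5, per the labels; their number limits the precision. The authors deposited normalised intensity values on a linear scale, with a median of 26.6 on each array; R 2.15.1 and limma 3.14.4 appear in the submitters' processing notes, with background and normalization methods not given in the sources used here. Gene symbols came from the platform annotation (31465 spots with 1 symbol, 0 with several, 31511 unnamed), with 29050 spots matched and 2933 symbols updated through RefSeq accessions. The spot with the highest mean stood for its gene.

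Log2 values, with no offset, were fitted with limma 3.58.1 in R 4.3.3 (lmFit, eBayes, group only), with Benjamini-Hochberg adjustment over all genes and a threshold of 0.05. The fit was tested on simulated data. Pandas 2.3.3, the data.table package (1.17.8) and matplotlib 3.10.9 on Python 3.11.15 were used besides. Bounds ("at least") set the dim group's arrays to the floor. The named genes were the members, up to 4 genes of smallest p per partner list, and the 5 most like Mep1b or Bmp1 and the 5 most unlike Mep1b, with Fosl2 and marker genes beside them; neighbours, Il6, Lox, Pcolce, Pcolce2 and Adamts2 were named after their values were seen. The members and lists were chosen with earlier results of these data known. Replicates are separate animals, per the series' design text. Alternatives were other scalings, offsets, filters, variance models, spot rules, a replicate block and mice left out. Proteins and Mep1b regulatory sequence were not analysed here.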

Additional observations from a re-analysis of the deposited data

Results flagged for a closer look

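Of 68 groups of 4 values examined (each member spot, each gene named from a partner list, and the Mep1b shifts, in each genotype), 5 had 1 mouse far from the other 3 by Dixon's criterion; chance flags about 1 in 20. The Mep1b minus Mep1a value of transgenic mouse 4 was 6.25, against 4.63 to 4.83 in the other transgenic mice, with Mep1a under the floor in all of them. At Tll1 spot 38680, wild-type mouse 1 stood at 4.34, under the floor, against 4.999 to 5.07. Sfrp2 stood at 10.16 in transgenic mouse 4 against 8.73 to 8.86, and Postn at 11.19 in that mouse against 11.63 to 11.70. Adam17 stood at 5.85 in transgenic mouse 2 against 5.52 to 5.56. Of the 5 values, 3 belong to transgenic mouse 4, whose array stood apart from its group.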

How the results depend on the processing

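Mep1b kept its call under each alternative other than the replicate block, including 1 mouse left out and both mice numbered 4 left out. The mean of all spots could not change the Mep1b difference, since Mep1b was read by 1 spot. With mouse number as a replicate block its difference stayed at 5.28 and its limma adjusted p was 0.103, while the count of called genes fell from 45 to 5 (2 higher, 3 lower); for the shifts over Mep1a (5.02) and Bmp1 (5.36) the paired exact p was 0.125, the smallest that 4 pairs allow. The labels do not say that numbers mark a shared litter or batch, so the numbers were not taken as pairs. Deviations from the group means of same-numbered mice had r of 0.131, -0.008, 0.136 and 0.071 for numbers 1 to 4. The highest r of each wild-type mouse with a transgenic mouse of another number was 0.101, 0.052, 0.005 and 0.004. Same-numbered r was thus low but the higher one for numbers 1, 3 and 4. Whether the numbers mark a shared factor was not tested. The count of genes was 80 (49 higher, 31 lower) with an offset of 16, 88 (56 and 32) with 32, 74 (44 and 30) with dim genes removed, 118 (80 and 38) with trend and robust variances and 17 (9 and 8) without both mice numbered 4. With 1 mouse left out it was 17 to 38 (7 to 20 higher, 10 to 19 lower).

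Without both mice numbered 4 the shifts were 4.17 over Mep1a and 4.59 over Bmp1, with an exact p of 0.100, the smallest that 3 against 3 allow. Bmp1 changed sign there (0.098) and with the mean of all spots (0.077), and ran from -0.143 to 0.0128 with 1 mouse left out; its spot 47699 ran from -0.157 to 0.0435. Without both mice numbered 4, signs also turned for Postn (0.085), Ces1e (0.328), Gas6 (0.105), Proc (0.273), Mtfr1l (0.037) and Usp2 (0.059), and with the mean of all spots for Dock3 (0.045). With 1 mouse left out Postn ran from -0.145 to 0.0309, Ces1e from -0.273 to 0.126, Gas6 from -0.224 to 0.0074 and Proc from -0.216 to 0.130. The call in the procollagen processing list (1 gene, Adamts14) became 0 under the block, the mean of all spots and without both mice numbered 4. With 1 mouse left out that count was 0 to 1. The other tolloid substrates had 0 calls in the main fit and gained 1, Dspp, without wild-type mouse 1. The fits with mice left out hold fewer mice. Why calls were lost was not tested. Dim spots limit Mep1a, Tll2, Astl and the wild-type level of Mep1b to statements about the floor. Under quantile and 75th-percentile scaling every result computed kept its direction and its side of the threshold. The deposited arrays already had nearly equal medians, means (1203.05 to 1203.21) and top values, so these scalings could change little.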
